A study of Mus musculus with 10 samples.

Results

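A group of 9 chemokine receptor genes, 8 CC receptors and the atypical receptor Ccrl2, is described here in regulatory T cells (Tregs) of the mouse spleen. It is not the whole CC family: Ccr7, for one, is counted below with the other chemokine receptors. The members are the genes Ccr1, Ccr2, Ccr3, Ccr4, Ccr6, Ccr8, Ccr9, Ccr10 and Ccrl2, found as the probe sets whose gene symbol in the platform's probe table equals one of these names, among 19938 named genes. Each member had 1 probe set, so no further probe set could be set beside it. No filter on low values was applied, and all 9 were tested. Cells were sorted as CD4+ cells that carry a red fluorescent reporter at Foxp3, from C57BL/6 females of 9 to 14 weeks, and gated on CD62L, a homing receptor of lymph nodes, on the activation marker CD69 and on the lectin-like receptor Klrg1, which marks differentiated T and NK cells. They formed the groups FR3 Klrg1+ (CD62Llo CD69+ Klrg1+, 1 array), FR3 Klrg1- (CD62Llo CD69+ Klrg1-, 4 arrays), FR2 (CD62Llo CD69- Klrg1-, 2 arrays) and FR1 (CD62Lhi CD69- Klrg1-, 2 arrays). All cells of all groups carry the reporter and no group was treated. The labels do not say whether an array holds the cells of 1 mouse or of several pooled mice, so the tests measure the spread between arrays, and the small number of arrays limits the precision.

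Chemokine receptors are G protein-coupled receptors that steer leukocytes along gradients of chemokines. Tregs that leave the resting state lose the receptors for lymph node entry and gain receptors for ligands made in skin, lung, gut, tumours and inflamed tissue. Among the members, Ccr1, Ccr2 and Ccr3 are best known from monocytes, other myeloid cells and eosinophils, Ccr4, Ccr6 and Ccr8 from T helper cells and Tregs, and Ccr9 and Ccr10 from homing to gut and skin. Ccrl2 is an atypical receptor that binds chemerin and does not drive migration.

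Values are RMA intensities on the log2 scale, and differences are log2 differences with their SE. Correlation between arrays split the 10 into 2 sets, with r of 0.972 to 0.992 inside a set and 0.901 to 0.921 across sets. The first set held FR3 Klrg1- replicates 1 and 2, FR2 and FR1. The second held FR3 Klrg1+, FR3 Klrg1- replicates 3 and 4, and an array titled as FR3 whose marker text is that of FR1, which was placed in no group. Every comparison between groups was made within a set, by 1 limma fit over the 9 grouped arrays that also held a term for the set. The T cell markers (7 genes) averaged between 10.91 and 11.40 on the grouped arrays and the Treg markers (7 genes) between 10.67 and 11.40, while the B cell markers averaged between 5.59 and 5.80. Klrg1 itself was at 12.33 in FR3 Klrg1+ and at 5.43 to 7.47 on the Klrg1- arrays. Its transcript also differed among the groups gated as Klrg1-. It was higher than in FR1 by 0.90 ± 0.19 in FR2 and by 1.27 ± 0.19 in FR3 Klrg1- (limma, adjusted p = 0.014 and 0.000395). The Cd69 transcript did not separate the gate: it was at 12.02 and 12.16 in FR3 Klrg1- of the first set, 11.86 and 12.17 in FR2, and 12.11 and 12.41 in FR1. Of the 8 neutrophil, 3 erythroid and 4 platelet markers measured, 0 were called in any comparison between groups below. Other lists held calls. Of the 7 Treg markers, 3 were higher and 0 lower in FR3 Klrg1- against FR2, and 5 were higher and 1 lower against FR1. FR2 against FR1 had 1 higher and 1 lower, and FR3 Klrg1+ against FR3 Klrg1- had 1 higher and 0 lower. Of the 7 T cell markers, 1 was higher in FR3 Klrg1- against FR1 and 1 was lower in FR3 Klrg1+ against FR3 Klrg1-. The shares over all genes are given with each comparison below. In FR3 Klrg1- against FR2, 1 of 8 NK cell markers rose, Klrb1c by 1.09 ± 0.14 (adjusted p = 0.000267). In FR3 Klrg1+ against FR3 Klrg1-, the NK cell markers held Prf1, higher by 0.80 ± 0.16, and Klrb1c, which fell by 0.66 ± 0.17 (adjusted p = 0.00964 and 0.0376), and the 8 dendritic cell markers held Flt3, higher by 0.91 ± 0.15, and H2-Ab1, which fell by 0.72 ± 0.17 (adjusted p = 0.00374 and 0.0249). In FR2 against FR1, Prf1 fell by 0.63 ± 0.13 and the plasma cell marker Jchain fell by 0.84 ± 0.21 (adjusted p = 0.0108 and 0.0348). FR3 Klrg1- against FR1 had the B cell markers Cd22 higher by 0.94 ± 0.18 and Cd79a lower, with a difference of -0.68 ± 0.17, the CD8 T cell marker Cd8b1 lower, at -0.55 ± 0.13, Klrb1c higher by 1.15 ± 0.14 and Prf1 lower, at -0.86 ± 0.13. The part of these in the receptor differences was not tested. In sorted bulk samples, more transcript per cell and more cells that carry the transcript cannot be told apart.

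**Figure D1:**
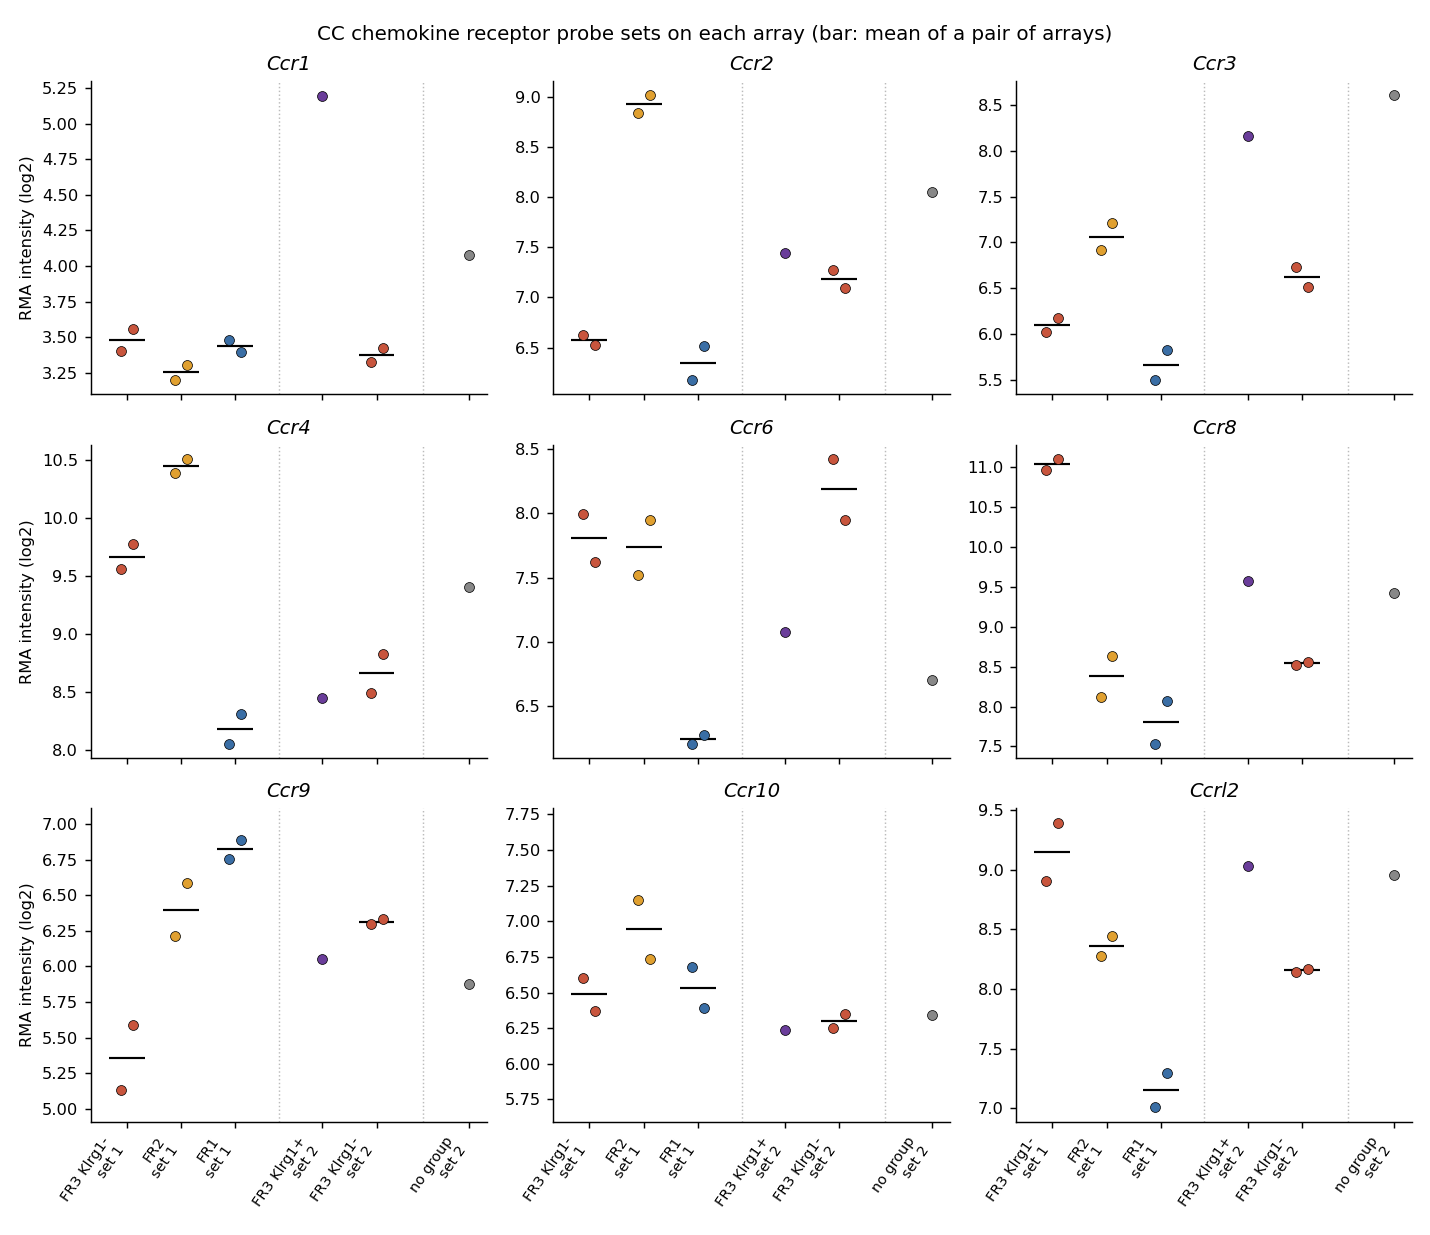
Log2 intensity of each CC chemokine receptor probe set on each of the 10 arrays, grouped by sort gate and array set, with a bar at the mean of a pair of arrays. Ccr2, Ccr3 and Ccr4 were highest in FR2 within the first set, Ccr8 and Ccrl2 in FR3 Klrg1-, and Ccr1 was above 5 on the FR3 Klrg1+ array alone. The vertical axes differ between panels and do not start at 0.

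FR2 against FR1 asks what goes with low CD62L in Tregs negative for both other markers. Transcripts of 5 of the 9 receptors were higher in FR2: Ccr2, Ccr4, Ccr6, Ccr3 and Ccrl2, by 2.31-fold to 5.97-fold. None of the 9 fell past the threshold (limma, adjusted p under 0.05), and 4 did not pass. Over all genes 4.26% were called in this comparison, with 1.96% higher and 2.3% lower. The members' median difference was 1.21, against 0.02 over all genes. The members were chosen with earlier results of these data known, and Ccr7, which fell in this comparison, is not among them. Here and in the comparisons below, the shares over all genes are a description and not a test of the group.

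FR3 Klrg1- against FR2 asks what goes with CD69 among CD62Llo cells. Here 2 members were higher, Ccr8 by 6.31-fold and Ccrl2 by 1.73-fold, and 4 were lower, Ccr2 by 5.08-fold, Ccr9 by 2.06-fold, Ccr3 by 1.95-fold and Ccr4 by 1.72-fold. Over all genes 4.75% were called, 2.81% higher and 1.94% lower. The members' median was -0.46, against -0.00348 over all genes. The calls of Ccr4 and Ccrl2 were lost when some single arrays were left out, which leaves 1 array of a group in the first set. Calls over all genes fell in those fits as well. For Ccr4 the difference was -0.84 and -0.72 without FR2 replicate 1 or 2, and -0.68 without FR3 Klrg1- replicate 1, against -0.78 with all arrays. For Ccrl2 it was 0.71 without FR2 replicate 1 and 0.54 without FR3 Klrg1- replicate 2, against 0.79 with all arrays.

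FR3 Klrg1- against FR1 spans both gates. Ccr8 was 9.39-fold higher, Ccrl2 4.00-fold, Ccr6 2.97-fold and Ccr4 2.79-fold, and Ccr9 was 2.76-fold lower. In this comparison 8.19% of all genes were called, 4.39% higher and 3.79% lower. The members' median was 0.44, against 0.02 over all genes. It shares its arrays with the comparisons before it, so their values are not independent.

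FR3 Klrg1+ against FR3 Klrg1- asks what goes with Klrg1 among CD62Llo CD69+ cells, and rests on 1 array against replicates 3 and 4. Ccr3 was 2.91-fold higher in FR3 Klrg1+, Ccr8 2.05-fold and Ccrl2 1.83-fold, and Ccr6 was 2.16-fold lower. Ccr1 was also called higher, but its probe set stood at percentiles 4.8 and 5.4 of the FR3 Klrg1- arrays, so the size of that difference is not ranked with the others. Over all genes 4.96% were called, 2.14% higher and 2.82% lower. The members' median was 0.26, against 0.000855 over all genes. The test assumes that the lone FR3 Klrg1+ array varies like the other groups.

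Without the array set in the fit, each of these comparisons called 1 member: Ccr2 in FR2 against FR1 and in FR3 Klrg1- against FR2, Ccr6 in FR3 Klrg1- against FR1, and Ccr1 in FR3 Klrg1+ against FR3 Klrg1-. Calls over all genes fell as well, to 52, 55, 439 and 22 of 19938 in the same order. With the set they were 850, 948, 1632 and 989.

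**Figure D2:**
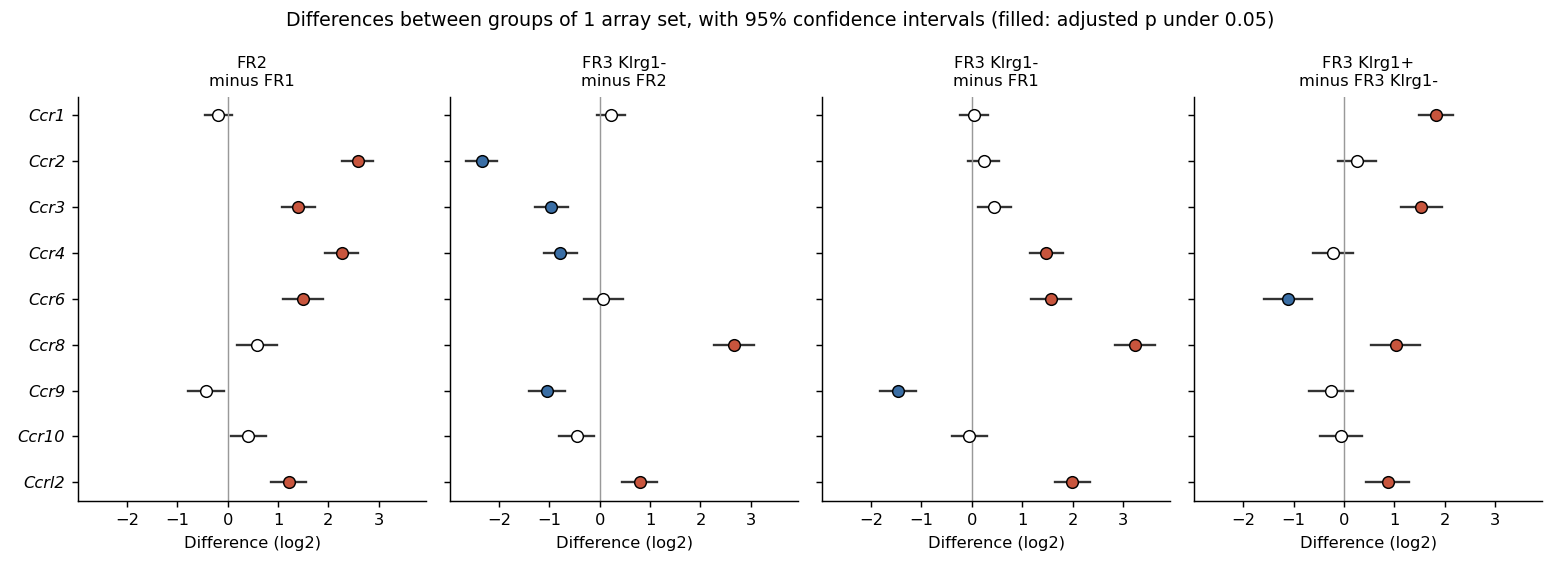
Log2 difference of each CC chemokine receptor in the 4 comparisons made within an array set, with its 95% confidence interval from limma; filled points have an adjusted p under 0.05, red higher and blue lower. Ccr2 stands at 2.58 for FR2 minus FR1 and at -2.35 for FR3 Klrg1- minus FR2, while Ccr8 stands at 2.66 for FR3 Klrg1- minus FR2.

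Ccr2, Ccr3 and Ccr4, called higher in FR2 than in FR1 and in FR3 Klrg1- of the first set, are shown first with the DNA before their start sites. Ccr8, which like Ccrl2 peaked in FR3 Klrg1-, is shown beside them for contrast. Each sequence is the 250 bases before the RefSeq start of the gene, 5′ to 3′ on the gene's strand, in build GRCm38.p6, and lies at chr9:124101933-124102182 (+) for Ccr2, chr9:124021721-124021970 (+) for Ccr3, chr9:114496545-114496794 (-) for Ccr4 and chr9:120091883-120092132 (+) for Ccr8. Capitals mark matches, on either strand, to 5 motifs: TGANTCA of AP-1, GGAAA of the NFAT core, AGGTCA of a nuclear receptor half-site, AGATAA of GATA factors and TCACACC of T-box factors.
Ccr2: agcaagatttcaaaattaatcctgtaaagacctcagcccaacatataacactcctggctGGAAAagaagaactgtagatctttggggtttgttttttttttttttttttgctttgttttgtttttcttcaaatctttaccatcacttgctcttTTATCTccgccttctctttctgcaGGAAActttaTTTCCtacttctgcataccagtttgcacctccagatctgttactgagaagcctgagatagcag
Ccr3: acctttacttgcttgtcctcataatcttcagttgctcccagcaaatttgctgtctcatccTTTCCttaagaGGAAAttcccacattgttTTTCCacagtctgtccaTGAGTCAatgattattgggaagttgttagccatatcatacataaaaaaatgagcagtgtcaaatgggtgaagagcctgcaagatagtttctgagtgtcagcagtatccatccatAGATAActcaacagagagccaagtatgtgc
Ccr4: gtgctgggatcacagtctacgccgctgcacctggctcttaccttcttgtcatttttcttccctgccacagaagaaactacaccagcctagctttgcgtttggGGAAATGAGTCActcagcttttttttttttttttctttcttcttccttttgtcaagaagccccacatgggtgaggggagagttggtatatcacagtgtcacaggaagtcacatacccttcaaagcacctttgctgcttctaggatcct
Ccr8: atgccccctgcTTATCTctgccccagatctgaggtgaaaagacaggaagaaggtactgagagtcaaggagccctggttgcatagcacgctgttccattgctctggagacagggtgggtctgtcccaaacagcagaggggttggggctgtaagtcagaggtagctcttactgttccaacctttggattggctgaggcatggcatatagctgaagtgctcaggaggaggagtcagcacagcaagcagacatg
Ccr3 and Ccr4 each held 1 AP-1 match, TGAGTCA, whose first base lay 144 bases before the start in Ccr3 and 143 in Ccr4, and in Ccr4 it directly followed an NFAT core. The windows of Ccr2 and Ccr8 held no AP-1 match. NFAT cores numbered 3 in Ccr2, 3 in Ccr3, 1 in Ccr4 and 0 in Ccr8, and Ccr2, Ccr3 and Ccr8 each held 1 GATA match. Of the members not shown, Ccr1, Ccr6 and Ccrl2 also held NFAT cores and Ccr9 held none. Ccr6 and Ccrl2 have several windows each, and some of these held a GATA match. A window of Ccr6 held a nuclear receptor half-site, and windows of Ccrl2, which peaked with Ccr8, held a T-box match. Whether any motif goes with the gates was not tested. Among 32851 RefSeq windows of the same length, 6.75% held the AP-1 motif, 55.6% the NFAT core, 9.99% the GATA motif, 14.0% the nuclear receptor half-site and 3.33% the T-box motif. Of the 9 members, 8 were in the RefSeq promoter table, all but Ccr10. A match in these letters is a description of the sequence and not evidence of binding.

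Ccr2, the receptor for Ccl2 that takes monocytes out of the bone marrow, stood at 6.63 and 6.53 in FR3 Klrg1- of the first set, at 8.84 and 9.01 in FR2, and at 6.18 and 6.52 in FR1. The FR2 pair lay far above both other pairs, while a pair each of FR3 Klrg1- and FR1 arrays lay close together. FR2 exceeded FR1 by 2.58 ± 0.15 (adjusted p = 2.89e-07), and FR3 Klrg1- fell by 2.35 ± 0.15 relative to FR2 (adjusted p = 5.37e-07). Between FR3 Klrg1- and FR1 the difference was 0.23 with a 95% interval of -0.08 to 0.54 (adjusted p = 0.472). In the second set Ccr2 stood at 7.44 in FR3 Klrg1+ against 7.27 and 7.10 in FR3 Klrg1-, a difference of 0.26 with an interval of -0.13 to 0.64 (adjusted p = 0.46). Of the 9 macrophage and monocyte markers measured, 0 were called in limma in either comparison with FR2, and their mean level was 5.39 to 5.59 in FR3 Klrg1- of the first set, 5.40 to 5.41 in FR2 and 5.28 to 5.42 in FR1.

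Ccr3 binds the eotaxins and marks eosinophils, and it is the protein-coding gene just before Ccr2 on chromosome 9. It stood at 6.03 and 6.18 in FR3 Klrg1- of the first set, at 6.91 and 7.21 in FR2, and at 5.50 and 5.82 in FR1. These 3 pairs did not overlap. FR2 exceeded FR1 by 1.41 ± 0.15 (adjusted p = 6.16e-05), and FR3 Klrg1- fell by 0.96 ± 0.15 relative to FR2 (adjusted p = 0.00186). FR3 Klrg1- and FR1 differed by 0.44 with an interval of 0.11 to 0.77, which did not pass over all genes (adjusted p = 0.108). In the second set Ccr3 reached 8.16 in FR3 Klrg1+, against 6.73 and 6.51 in FR3 Klrg1-, a rise of 1.54 ± 0.19 (adjusted p = 0.000328). Of the 8 markers of eosinophils and basophils, 0 were called in FR2 against FR1, and 1 was called in FR3 Klrg1+ against FR3 Klrg1-: the granule protein gene Prg2, higher by 0.77 ± 0.19 (adjusted p = 0.035). The mean of the 8 markers was 4.76 in FR3 Klrg1+ and 4.52 to 4.75 in FR3 Klrg1- of the second set. Their part in the rise of Ccr3 was not tested.

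Ccr1, a receptor for Ccl3 and Ccl5 on myeloid cells, was dim on most arrays. It stood at 3.40 and 3.56 in FR3 Klrg1- of the first set, at 3.20 and 3.31 in FR2, and at 3.48 and 3.39 in FR1, at or below percentile 7.6 of each array. In the second set it stood at 5.20 in FR3 Klrg1+, percentile 26.7 of that array, against 3.33 and 3.43 in FR3 Klrg1-. The FR3 Klrg1+ array was thus apart from every other grouped array. The difference there was 1.82 ± 0.16 (adjusted p = 1.67e-05), with the FR3 Klrg1- signal near the bottom of the array's range, where a fold is less certain. None of the comparisons within the first set passed, with differences between -0.18 and 0.23. Of the 9 macrophage and monocyte markers, 0 rose and 2 fell in FR3 Klrg1+ (Mpeg1 and Vcam1), and the mean level of the 9 was 5.34 there, against 5.78 to 5.92 in FR3 Klrg1-.

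Ccr4 is the receptor for Ccl17 and Ccl22 and takes T helper 2 cells and Tregs into skin and lung. It stood at 9.56 and 9.78 in FR3 Klrg1- of the first set, at 10.39 and 10.51 in FR2, and at 8.06 and 8.32 in FR1. The 3 pairs did not overlap, with FR2 highest and FR1 lowest. FR2 exceeded FR1 by 2.26 ± 0.15 (adjusted p = 1.26e-06), and FR3 Klrg1- exceeded FR1 by 1.48 ± 0.15 (adjusted p = 1.08e-05). FR3 Klrg1- lay 0.78 below FR2, with an interval of -1.11 to -0.46 (adjusted p = 0.00721). Within the second set, FR3 Klrg1+ at 8.45 and FR3 Klrg1- at 8.49 and 8.83 differed by -0.21 with an interval of -0.61 to 0.18 (adjusted p = 0.575).

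Ccr8, the receptor for Ccl1 that is abundant on Tregs of tumours and barrier tissues, stood at 10.97 and 11.10 in FR3 Klrg1- of the first set, at 8.12 and 8.63 in FR2, and at 7.53 and 8.08 in FR1. The FR3 Klrg1- arrays were apart from all others of the set. FR3 Klrg1- exceeded FR2 by 2.66 ± 0.19 (adjusted p = 1.54e-06) and FR1 by 3.23 ± 0.19 (adjusted p = 3.43e-08). FR2 and FR1 did not overlap, but their difference of 0.57, with an interval of 0.18 to 0.97, did not pass (adjusted p = 0.102). It passed with genes under percentile 40 of the mean left out (adjusted p = 0.0449). Ccr8 of the second set stood at 9.57 in FR3 Klrg1+ against 8.52 and 8.56 in FR3 Klrg1-, a rise of 1.03 ± 0.23 (adjusted p = 0.0177). Without the array set in the fit, this last difference turned to -0.22 ± 1.03 (adjusted p = 0.952), because the FR3 Klrg1- arrays of the first set are then in the same mean.

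Ccr6, the receptor for Ccl20 that is known from T helper 17 cells, stood at 7.99 and 7.62 in FR3 Klrg1- of the first set, at 7.52 and 7.95 in FR2, and at 6.20 and 6.27 in FR1. FR3 Klrg1- and FR2 overlapped, and both were above FR1. FR2 exceeded FR1 by 1.50 ± 0.18 (adjusted p = 0.000167) and FR3 Klrg1- exceeded FR1 by 1.57 ± 0.18 (adjusted p = 3.82e-05). FR3 Klrg1- minus FR2 was 0.07 with an interval of -0.32 to 0.46 (adjusted p = 0.929). On the second set's arrays Ccr6 stood at 7.07 in FR3 Klrg1+ against 8.43 and 7.95 in FR3 Klrg1-, and fell by 1.11 ± 0.22 (adjusted p = 0.0112). It was the 1 member that fell past the threshold with Klrg1.

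Ccr9, the receptor for Ccl25 that directs T cells to the small intestine, went the other way in the first set. It stood at 5.13 and 5.59 in FR3 Klrg1-, at 6.21 and 6.59 in FR2, and at 6.75 and 6.89 in FR1, with no overlap between the pairs. FR3 Klrg1- fell by 1.04 ± 0.17 relative to FR2 (adjusted p = 0.00174) and by 1.46 ± 0.17 relative to FR1 (adjusted p = 2.8e-05). FR2 minus FR1 was -0.42, with an interval of -0.78 to -0.07 (adjusted p = 0.189). In the second set it stood at 6.06 in FR3 Klrg1+ against 6.29 and 6.33 in FR3 Klrg1-, a difference of -0.26 with an interval of -0.69 to 0.18 (adjusted p = 0.523).

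Ccr10, the receptor for Ccl27 and Ccl28 in skin and mucosa, passed in none of these comparisons. It stood at 6.60 and 6.37 in FR3 Klrg1- of the first set, at 7.15 and 6.74 in FR2, and at 6.68 and 6.39 in FR1. Its second-set levels were 6.24 in FR3 Klrg1+ against 6.25 and 6.35 in FR3 Klrg1-. The FR2 arrays were the upper pair, by 0.41 over FR1 with an interval of 0.07 to 0.75 (adjusted p = 0.189), and FR3 Klrg1- lay below FR2 with a difference of -0.46 and an interval of -0.80 to -0.11 (adjusted p = 0.144).

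Ccrl2, the atypical chemerin receptor, stood at 8.90 and 9.39 in FR3 Klrg1- of the first set, at 8.28 and 8.44 in FR2, and at 7.01 and 7.29 in FR1. The 3 pairs did not overlap, and the order of the gates was the order of the levels. FR2 exceeded FR1 by 1.21 ± 0.16 (adjusted p = 0.000402), FR3 Klrg1- exceeded FR2 by 0.79 ± 0.16 (adjusted p = 0.0111), and FR3 Klrg1- exceeded FR1 by 2.00 ± 0.16 (adjusted p = 1.1e-06). In the second set it stood at 9.03 in FR3 Klrg1+ against 8.15 and 8.16 in FR3 Klrg1-, a rise of 0.87 ± 0.20 (adjusted p = 0.0221). Ccrl2 and Ccr8 were the members that were higher past the threshold both with CD69 and with Klrg1.

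The step at the CD69 gate (FR3 Klrg1- minus FR2) was then tested against the step at the CD62L gate (FR2 minus FR1) in the same fit. The 2 steps differed for 5 of the 9 members, 1 above and 4 below, against 2.67% of all genes, 1.6% above and 1.07% below. The CD69 step was below the CD62L step for Ccr2 (difference of steps -4.92 ± 0.25, adjusted p = 1.46e-07), Ccr4 (-3.05 ± 0.26, 1.91e-05), Ccr3 (-2.37 ± 0.27, 0.000197) and Ccr6 (-1.43 ± 0.32, 0.0284), and above it for Ccr8 (2.08 ± 0.32, 0.00295). For Ccrl2 the difference was -0.42 with an interval of -1.02 to 0.19 (adjusted p = 0.558), and for Ccr9 it was -0.62 with an interval of -1.23 to -0.00182 (adjusted p = 0.335). FR2 enters both steps with opposite sign, so an error in the FR2 arrays moves them apart. Without the set in the fit Ccr2 was the 1 member called, where 9 of all 19938 genes were called. Without FR2 replicate 1 the difference of steps for Ccr8 was 1.57 ± 0.38, and its call was lost. The call of Ccr6 was lost without FR1 replicate 1 or 2, FR2 replicate 1 or 2, or FR3 Klrg1- replicate 2. Its difference of steps then ran from -1.8545 without FR2 replicate 1 to -1.0034 without FR2 replicate 2. Each of these fits leaves 1 array of a group in the first set, and calls over all genes fell in each as well.

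**Figure D3:**
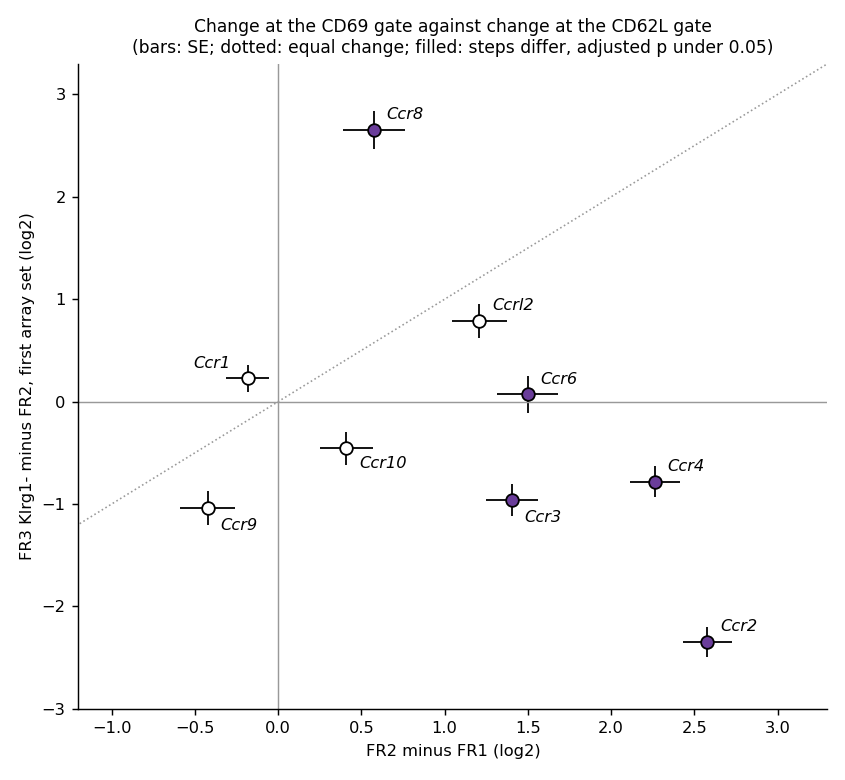
For each CC chemokine receptor, the log2 difference at the CD69 gate (FR3 Klrg1- minus FR2, first array set) against that at the CD62L gate (FR2 minus FR1), with SE bars; the dotted line marks equal change, and filled points are those whose steps differed in limma. Ccr2, Ccr3 and Ccr4 lie at the lower right, Ccr8 lies at the top, and Ccr6 lies near 0 on the vertical axis.

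FR3 Klrg1- is the group with arrays in both sets, and its receptors differed between them. The first set exceeded the second for Ccr8 (2.49 ± 0.19, adjusted p = 8.83e-08), Ccr4 (1.01 ± 0.15, 8.26e-05) and Ccrl2 (0.99 ± 0.16, 0.000177), and was below it for Ccr9 (-0.96 ± 0.17, 0.000283), Ccr2 (-0.60 ± 0.15, 0.00395) and Ccr3 (-0.52 ± 0.15, 0.015). These are 6 of 9 members, 3 higher and 3 lower, against 38.3% of all genes, 19.3% higher and 18.9% lower. The Ccr8 values of FR3 Klrg1- replicates 3 and 4, at 8.52 and 8.56, lay between the FR2 values, at 8.12 and 8.63. A level of FR3 Klrg1- was therefore compared with FR2 and FR1 from replicates 1 and 2 alone, and since FR2 and FR1 have no array in the second set, whether their differences from FR3 Klrg1- are the same there cannot be told.

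Of 14 other measured chemokine receptors, FR2 had 3 higher and 1 lower than FR1, beside 1.96% higher and 2.3% lower over all genes, with a median of 0.05. Cxcr3, a receptor of T helper 1 cells, rose by 2.59 ± 0.14 (adjusted p = 2.29e-07) Cxcr6 by 1.64 ± 0.22 (adjusted p = 0.000371) and Cxcr5, which leads to B cell follicles, by 0.61 ± 0.15 (adjusted p = 0.0287), while Ccr7, the receptor for lymph node entry, fell by 1.61 ± 0.13 (adjusted p = 4.06e-06). FR3 Klrg1- had 2 higher than FR2 and 0 lower, beside 2.81% higher and 1.94% lower over all genes: Cxcr5 by 1.54 ± 0.15 and Cxcr4 by 0.72 ± 0.18 (adjusted p = 2.13e-05 and 0.0308). FR3 Klrg1+ had 1 higher and 2 lower than FR3 Klrg1-, beside 2.14% higher and 2.82% lower over all genes. Cxcr6 rose by 1.97 ± 0.27, Cxcr5 fell by 2.95 ± 0.18 and Ccr7 fell by 2.42 ± 0.16 (adjusted p = 0.0008, 6.31e-07 and 1.27e-06).

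Of 18 measured ligands of the members, 2 were higher and 0 lower in FR2 than in FR1, where 4.26% of all genes were called: Ccl5, a ligand of Ccr1 and Ccr3, by 1.80 ± 0.14 (adjusted p = 3.01e-06), and Ccl20, the ligand of Ccr6, by 0.56 ± 0.14 (adjusted p = 0.0295). Ccl1, a ligand of Ccr8, was the 1 ligand of 18 called in FR3 Klrg1- against FR2, higher by 0.75 ± 0.16 (adjusted p = 0.0112), beside 4.75% of all genes. In FR3 Klrg1+ against FR3 Klrg1-, 2 of 18 were higher, beside 4.96% of all genes: Ccl1 by 1.28 ± 0.19 (adjusted p = 0.00163) and Ccl3, a ligand of Ccr1, by 1.18 ± 0.19 (adjusted p = 0.00245). The list medians were 0.12, -0.04 and 0.09 in these comparisons. Against FR1, FR3 Klrg1- had 2 of 18 ligands higher, beside 8.19% of all genes called: Ccl5 by 1.85 ± 0.14 and Ccl1 by 0.78 ± 0.16 (adjusted p = 3.91e-07 and 0.00395).

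Of 27 measured transducers and brakes of chemokine receptor signals, 1 was higher and 1 lower in FR2 than in FR1, a share near the 4.26% of all genes: Rgs1, a brake on G proteins, rose by 0.55 ± 0.13 and Rasgrp2, which activates Rap1 for integrin adhesion, fell by 0.73 ± 0.14 (adjusted p = 0.0269 and 0.00619). In FR3 Klrg1- against FR2, 1 of 27 rose and 4 fell, beside 2.81% higher and 1.94% lower over all genes. The G protein brake Rgs16 rose by 1.44 ± 0.14 (adjusted p = 1.97e-05), Rasgrp2 fell by 1.59 ± 0.14 (7.16e-06), the PI3K subunit Pik3r5 fell by 0.81 ± 0.13 (0.00227), and the Rac activator Dock2, needed for lymphocyte migration, fell by 0.63 ± 0.12 (0.00774). In FR3 Klrg1+ against FR3 Klrg1-, 2 of 27 rose and 0 fell, a share near the 4.96% of all genes: Rgs2 by 0.65 ± 0.17 and Rap1b by 0.58 ± 0.16 (adjusted p = 0.0367 and 0.0455). The list medians were 0.01, -0.04 and 0.13. Against FR1, FR3 Klrg1- had 4 higher and 5 lower, beside 4.39% higher and 3.79% lower over all genes.

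Of 15 measured transcription factors known to act on chemokine receptor genes in T cells, 5 were higher and 3 lower in FR2 than in FR1, beside 1.96% higher and 2.3% lower over all genes. Maf rose by 1.72 ± 0.14, Rora by 1.61 ± 0.13 and Tbx21, the T helper 1 regulator, by 1.09 ± 0.14, and Satb1 fell by 1.01 ± 0.13 (adjusted p = 3.8e-06, 3.8e-06, 0.000315 and 0.000182). In FR3 Klrg1- against FR2, 1 was higher and 3 lower, beside 2.81% higher and 1.94% lower over all genes. The AP-1 family member Batf rose by 0.97 ± 0.13, and Satb1 fell by 1.23 ± 0.13, Klf2 by 1.29 ± 0.15 and Rara by 0.58 ± 0.14 (adjusted p = 0.000372, 3.77e-05, 0.000136 and 0.0227). In FR3 Klrg1+ against FR3 Klrg1-, 3 were higher and 0 lower, beside 2.14% higher and 2.82% lower over all genes. Gata3 rose by 1.33 ± 0.16, Prdm1 by 1.27 ± 0.26 and Satb1 by 0.65 ± 0.15 (adjusted p = 0.000346, 0.0131 and 0.0254). The list medians were 0.26, -0.08 and 0.12. Against FR1, FR3 Klrg1- had 7 higher and 3 lower, beside 4.39% higher and 3.79% lower over all genes.

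Genes with the most similar pattern were found by Pearson correlation over the 6 arrays of the first set, among 472 genes whose group means spanned at least 1. These arrays share the sort and the set, and the values are a description. Ccr2 was followed most closely by Gpr15, a gut homing receptor (r = 0.994), Nr1d1 (0.993) and the IL-18 receptor chain Il18r1 (0.991). For Ccr4 they were the other IL-18 receptor chain Il18rap (r = 0.998), Osbpl3 (0.998) and Gpr155 (0.993), and for Ccr3 they were Crmp1 (0.990), S100a6 (0.974) and Klrb1f (0.973). For Ccr6 they were Tbx21 (r = 0.985), Glrx (0.982) and Cobll1 (0.974). Ccr8 was followed by Mctp1 (r = 0.997), Galm (0.995) and Plek (0.995), Ccrl2 by the cytokine Il10 (0.996), Kcnk6 (0.995) and the chemokine Cxcl10 (0.993), and Ccr9 by Me2 (0.993), Txnip (0.992) and Crybg1 (0.990). Gpr15 averaged 6.90 in FR3 Klrg1- of the first set, 8.35 in FR2 and 6.73 in FR1, and Mctp1 averaged 7.68, 6.48 and 6.35 in the same groups. Ccr1 and Ccr10 spanned less than 1 and were not matched.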

How the data were processed

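Per the labels, 20 to 50 ng of RNA from each of the 10 samples was amplified and measured on an Affymetrix Mouse Gene ST 1.0 array. The deposited values have the range of log2 intensities, and the submitters' processing notes name RMA; the RMA version, and whether all arrays were normalized together, are not given in the sources used here. Of 35556 probe sets, 21789 had 1 gene symbol, 1621 had several and 12146 were unnamed here. The brightest probe set per gene was kept, which left 19938 genes.

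Array sets were found by average linkage on the correlation between arrays. One model over the 9 grouped arrays, with group and array set, was fitted with limma 3.58.1 in R 4.3.3, with Benjamini-Hochberg adjustment over all genes at a threshold of 0.05, and tested on simulated data. Named were all members, at most 4 called genes per list and comparison by lowest p, and the 3 genes most like each member. The members and lists were chosen with earlier results of these data known. Promoters are RefSeq GRCm38.p6. Alternatives were the fit without the set, each set alone, a variance trend, an intensity filter, quantile normalization, every probe set, a fold threshold, array weights, a replicate block and leaving out each array.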

Additional observations from a re-analysis of the deposited data

Results flagged for a closer look

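On the array placed in no group, titled as FR3 with the marker text of FR1, Ccr3 stood at 8.61. This was above every grouped array, the highest of which was FR3 Klrg1+ at 8.16, and no comparison uses this array.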

How the results depend on the processing

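The 26 calls of members in the 5 comparisons between groups and steps were all made again with each set alone, with a variance trend, with quantile normalization, with every probe set and with array weights. With each set alone the differences are those of the main fit by design, and only the estimate of spread could change. Calls over all genes in FR2 against FR1 went from 850 to 1331 with the first set alone, 1248 with a variance trend and 1128 with array weights. They were 736 with quantile normalization and 957 of 21789 with every probe set. In the second set alone every member had an SE of 0.2301 or 0.2302, so that fit does not measure the spread of each gene. Without the array set in the fit, each of the 5 comparisons called 1 member, against 5 or 6 with it, and Ccr8 in FR3 Klrg1+ against FR3 Klrg1- turned to -0.22. Calls over all 19938 genes fell too, from 533 to 9 for the difference of steps and as given above for the groups. Requiring a log2 difference of at least 1 left 3 of 6 members called in FR3 Klrg1- against FR2, 2 of 6 between the array sets, and 4 of 5 in FR3 Klrg1+ against FR3 Klrg1-, where Ccrl2 was lost. Over all genes it left 145 of 948, 2063 of 7634 and 212 of 989 calls in the same order. Leaving out an array of the first set leaves 1 array of its group there, so sizes are given without counts. The difference of steps for Ccr8 was 1.57 without FR2 replicate 1 and 2.59 without FR2 replicate 2, against 2.08 with all arrays. Calls over all genes for the difference of steps fell whichever array of the first set was left out. Same-numbered arrays of the first set share a number in their titles, and whether they also share a sort or preparation is not known here. Their deviations correlated at 0.181, 0.144 and 0.0229 between pairs of groups. The main fit held no term for this number. With the replicate block, first set alone, 8 members were called in FR2 against FR1, 7 in FR3 Klrg1- against FR2, and 6 in FR3 Klrg1- against FR1 and 6 for the difference of steps. Calls rose over all genes too, to 1669, 1586, 2355 and 1187 of 19938 in the same order. The first set alone without the block had 1331, 1318, 2063 and 893. The added calls were Ccr8 (adjusted p = 0.0145), Ccr9 (0.0475) and Ccr10 (0.0437) in FR2 against FR1, Ccr10 in FR3 Klrg1- against FR2 (0.0264) and in the difference of steps (0.0224), and Ccr3 in FR3 Klrg1- against FR1 (0.0218). No such fit was possible for FR3 Klrg1+, which shares no number with FR3 Klrg1- of its set. No member had another probe set to try. Ccr1 fell under the intensity filter, which left it untested.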

Other observations

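The array placed in no group lay in the second set. Its Klrg1 level was 12.41, while FR3 Klrg1+ had 12.33 and FR3 Klrg1- replicates 3 and 4 had 7.27 and 7.47, although its marker text gives Klrg1-. The other receptors on this array stood at 4.08 for Ccr1, 8.05 for Ccr2, 9.41 for Ccr4, 6.70 for Ccr6, 9.42 for Ccr8, 5.87 for Ccr9, 6.34 for Ccr10 and 8.96 for Ccrl2. Its Cd69 level was 9.86, against 9.86 in FR3 Klrg1+ and 10.24 and 9.73 in FR3 Klrg1- of the second set.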
